A study of Rattus norvegicus with 150 samples.

Results

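Gene expression in rat calf muscle that held nickel implants was compared with muscle that held cobalt implants, both 3 months after surgery. The comparison used 16 of the 150 libraries of the series, 8 labelled nickel (Ni) at 3 months and 8 labelled cobalt (Co) at 3 months, chosen by their labels alone. All animals were male Sprague-Dawley rats, about 30 days old when purchased, and they were operated on after an acclimation of at least 2 weeks. Each rat received 4 metal cylinders in the gastrocnemius, 2 per limb, and each cylinder was 1 mm across and 2 mm long. Total RNA of that muscle was sequenced. Muscle with tantalum (Ta), which served as the sham metal, gave the background level in 8 further libraries of 3 months. The labels planned 8 rats per group but did not tie a library to an animal, and every p-value here rests on how far libraries of a group spread, which may in part be technical.

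As background, the gastrocnemius is a large limb muscle of mostly fast fibres. A few contractile and metabolic genes give a large share of the messenger RNA of such fibres. A solid implant draws macrophages, which can fuse to giant cells, and fibroblasts that lay down a capsule. Cobalt and nickel are both transition metals that release ions as they corrode in tissue, and salts of both are used in the laboratory to mimic low oxygen because they stabilise hypoxia-inducible factor. Both induce contact allergy in people. The table identified genes by Ensembl identifier, and the reference tables used held no Ensembl identifier, so no gene was given a name, a pathway or a cell type. For the same reason the muscle label could not be checked against marker genes, and sequences are not shown.

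Total counts of the 16 libraries ran from 12674115 to 16648269. The normalization factor, which corrects a library total for its make-up, was 0.912 to 1.13 with Ni, 0.798 to 1.28 with Ta and 0.986 to 1.89 with Co. The Co libraries did not resemble each other as closely as the Ni libraries did. Across the 12403 genes tested, the median correlation of a Co library with the other Co libraries was 0.797 to 0.907, against 0.941 to 0.959 among Ni libraries. These are descriptions across genes of log2 CPM (counts-per-million), and genes are not independent replicates. Co replicates 2, 8, 6 and 3 stood apart from the Ni libraries, with median correlations of 0.738, 0.773, 0.789 and 0.865. Co replicates 7, 4, 1 and 5 correlated with the Ni libraries at 0.938, 0.952, 0.953 and 0.963, at or close to the range among Ni libraries. The labels gave no batch, lane or other record by which the Co libraries could be split, and no test was made between Co libraries. Where some of them are set beside the others below, that order comes from these data and is a description.

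Cobalt muscle had many more genes at a higher level than nickel muscle, and few at a lower level. At an adjusted p under 0.05 (edgeR), 1424 genes were higher with Co, which is 11.5% of the 12403 tested. Another 83 were lower with Co, or 0.669% of those tested. The rises were large: 1123 exceeded 2-fold, 566 exceeded 4-fold, 158 exceeded 16-fold and 32 exceeded 64-fold. The falls were small, with 11 over 2-fold and 6 over 4-fold. The median log2 fold change, always given as Co minus Ni, was 1.71 among the rises, -0.57 among the falls and 0.01 over all genes tested. In bulk tissue, fewer cells of a type and less RNA per cell cannot be told apart.

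The count of 1507 called genes depended on single libraries. It fell to 647, 662, 694 and 954 without Co replicate 2, 8, 6 or 3, and rose to 2514 and 2615 without Co replicate 1 or 4. On the Ni side it was 885, 930, 934, 975 and 1001 without replicate 7, 3, 5, 8 or 6. The 83 falls depended on them more than the rises did. They numbered 1, 2, 4 and 16 without Co replicate 8, 6, 2 or 3, and 481, 434, 320 and 155 without Co replicate 4, 1, 5 or 7. Without a Ni library they numbered 16 to 60, the 60 being without replicate 2. The rises numbered 643 to 2134 over the same 16 fits. A single gene (1) was called with limma's voom method, run with weights that count libraries that scatter for less. It was not run without these weights, so their part in the lower count was not tested. With library totals alone in place of normalization factors 4197 genes were called, 4170 higher and 27 lower, and the median over all genes moved from 0.01 to 0.41.

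The rises and falls differed in how many Co libraries carried them. Co replicates 8, 2, 6 and 3 lay above every Ni library at 1420, 1417, 1413 and 1358 of the 1424 higher genes, and at 30.6%, 33.3%, 30.0% and 23.4% of all genes tested. Co replicates 7, 1, 4 and 5 did so at 519, 308, 280 and 230 of them, or 36.4%, 21.6%, 19.7% and 16.2%. Over all genes tested the latter 4 libraries were above every Ni library at 12.1%, 8.76%, 8.50% and 7.33% of genes. Most of the rises therefore had 4 or 5 Co libraries beyond the Ni range: 591 genes (41.5%) had 4 and 464 (32.6%) had 5. Of all genes tested, 11.9% had 4 such libraries and 6.24% had 5. All 8 Co libraries were above all 8 Ni libraries at 15 of the 1424 genes, and these were the only such genes among those tested (0.121%).

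The 83 falls were spread over more Co libraries. At 29 of them 6 Co libraries lay below every Ni library, at 17 of them 7 did, and at 3 of them all 8 did. Of all genes tested, 2.43% had 6 such libraries, 0.282% had 7 and 0.0242% had 8. Co replicate 7 was below every Ni library at 51 of the 83 falls, and Co replicates 5, 1 and 4 at 35, 32 and 25. Of all genes tested, 2351 of 12403 were below in replicate 7, and 8.39%, 10.8% and 10.8% in replicates 5, 1 and 4. Replicates 8, 6, 2 and 3 were below at 76, 75, 74 and 70 of the falls, and at 33.4%, 31.2%, 32.8% and 23.5% of all genes. Because calls need groups that are well separated, these counts describe the called genes and are not a test of them.

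**Figure D1:**
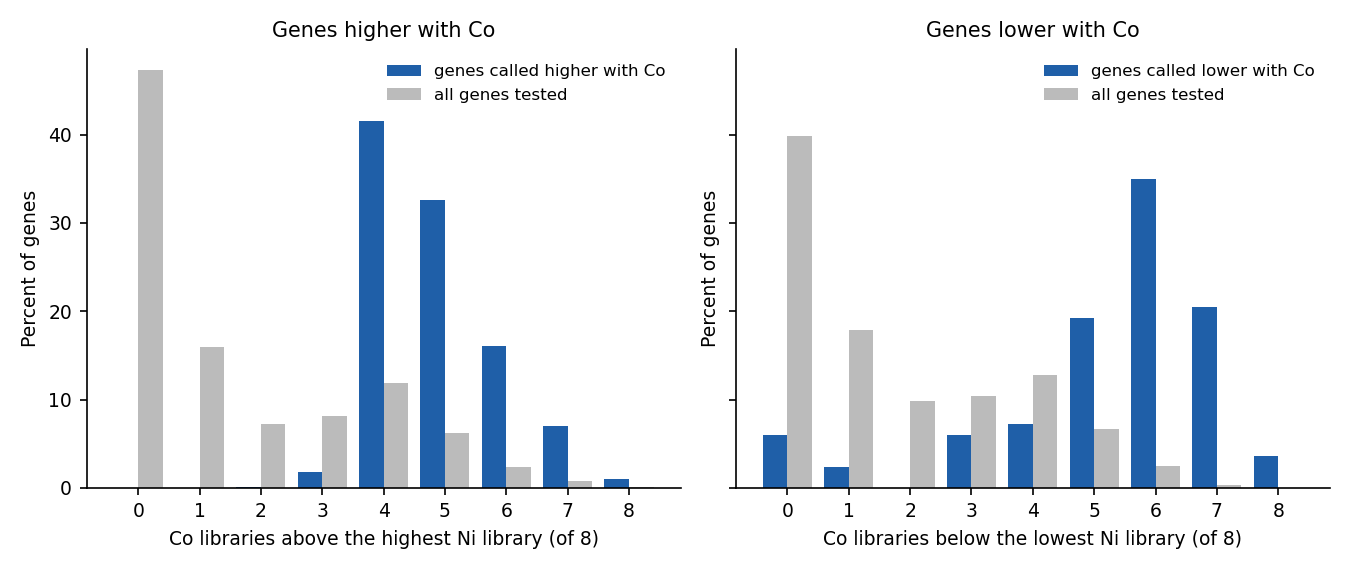
Percent of genes (vertical axis) by the number of the 8 Co libraries that lay above the highest Ni library (left, with the 1424 higher genes) or below the lowest Ni library (right, with the 83 lower genes). Blue bars are called genes and grey bars all 12403 genes tested. The rises pile up at 4 and 5 libraries and the falls at 6.

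The genes without any overlap between the groups were modest in level. The 15 rises without overlap had log2 fold changes from 1.80 to 5.77, with a median of 3.85 (edgeR adjusted p from 0.00656 to 0.00979). Their mean level was 0.259 to 3.68 CPM with Ni and 3.52 to 30.0 CPM with Co. The median of the Ta libraries lay within the Ni range at 14 of these 15 genes, as it did at 11903 of the 12403 tested. The 3 falls without overlap had log2 fold changes of -0.64 to -0.37 (edgeR adjusted p from 0.0367 to 0.0482), at mean levels of 6.87 to 118 CPM with Ni. The Ta median was within the Ni range at all 3.

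Averaged over the 1424 higher genes, each library has 1 summary level. With Co, replicates 2, 8, 6 and 3 had 4.76, 4.56, 4.53 and 3.88 log2 CPM, whereas replicates 7, 1, 4 and 5 had 2.41, 2.23, 2.17 and 2.04. With Ni it ran from 1.40 to 2.28 with a median of 1.68, and with Ta from 1.31 to 2.29 with a median of 1.95. Co replicates 1, 4 and 5 thus lay within the Ni and Ta ranges and replicate 7 slightly above both, while the upper 4 lay well above them. Over the 83 lower genes the Co libraries ran from 3.69 to 4.47 log2 CPM and the Ni libraries from 4.63 to 5.05, with no overlap. The Ta libraries, at 4.51 to 4.83, also lay above every Co library. The genes were chosen from these Co and Ni libraries, so the gap between those groups is fixed by that choice and is given as a description.

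**Figure D2:**
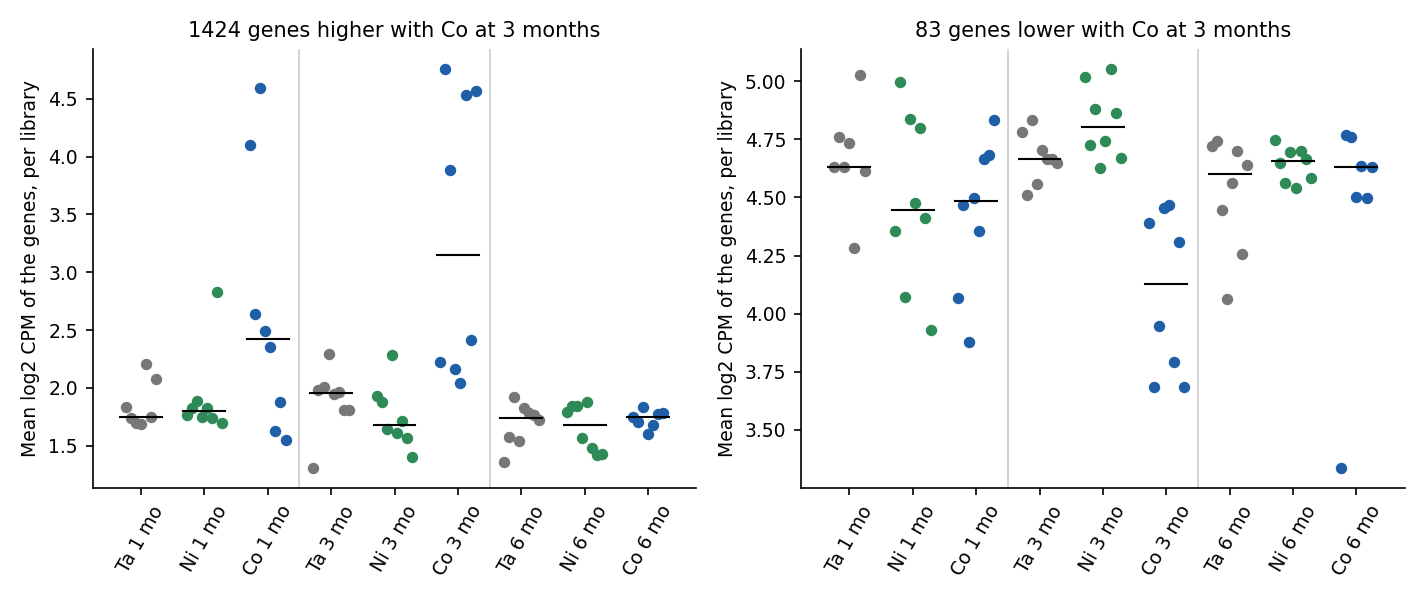
Mean log2 CPM per library (vertical axis) over the 1424 genes higher (left) and the 83 genes lower (right) with Co at 3 months, for Ta (grey), Ni (green) and Co (blue) at 1, 3 and 6 months. Points are libraries and lines group medians. At 3 months 4 Co libraries lie between 3.88 and 4.76 on the left, while all 8 lie under the Ni and Ta libraries on the right.

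The Ta libraries took no part in choosing the genes, and at most of them the Ta level lay nearer to Ni than to Co (1353 of the 1424 rises and 75 of the 83 falls, against 8768 of all 12403 genes). Of the 1424 higher genes, 1423 had a Co median above the Ta median, against 5839 of all 12403 genes tested. A Ni median above the Ta median was found at 377 of the 1424, against 6376 of 12403. The Ta median lay within the range of the 8 Ni libraries at 1372 of the 1424, a share close to the 11903 of 12403 over all genes tested. It lay within the range of the 8 Co libraries at 1068 of them, against 11492 of 12403. At the 83 falls it lay within the Ni range at 79 and within the Co range at 47. The median over the 1424 higher genes was 1.12 for Co minus Ta and -0.13 for Ni minus Ta, in log2 CPM. Of the 83 lower genes, 2 had a Co median above the Ta median and 62 a Ni median above it, with median differences of -0.55 for Co minus Ta and 0.11 for Ni minus Ta. Over all genes tested these differences were -0.03 and 0.01. Choosing genes by Co against Ni pushes the Co level away from Ta and the Ni level the opposite way, so these figures are no test of either metal against Ta.

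Most genes higher with Co averaged under 10 CPM in sham muscle. Of 698 genes tested that averaged under 1 CPM in the Ta libraries, 220 (31.5%) were higher with Co and 0 lower, with a median log2 fold change of 0.65. A gene of such low level that is high in Co passes the low-count filter more easily than one that is not, which favours rises in this class. At 1 to 10 CPM 863 of 5019 genes (17.2%) were higher and 19 lower, and at 10 to 100 CPM 331 of 5709 (5.80%) were higher and 49 lower. At 100 to 1000 CPM 15 of 887 genes were lower and 10 higher, but with library totals in place of normalization factors 9 were lower and 117 higher. The median log2 fold change at 10 to 100 CPM also changed sign with that scaling, from -0.09 to 0.30.

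At 1000 CPM or more, 0 of 90 genes passed in either direction in edgeR. The fitted level of all 90 was lower with Co, by a median of -0.59 on the log2 scale, with quartiles at -0.67 and -0.50. With DESeq2's size factors the median was -0.60 and again none of the 90 was above 0. With library totals alone it was -0.32, where 2 of the 90 were above 0 and 3 were called lower. These 90 genes share the same libraries, so their common sign is 1 observation and not 90.

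**Figure D3:**
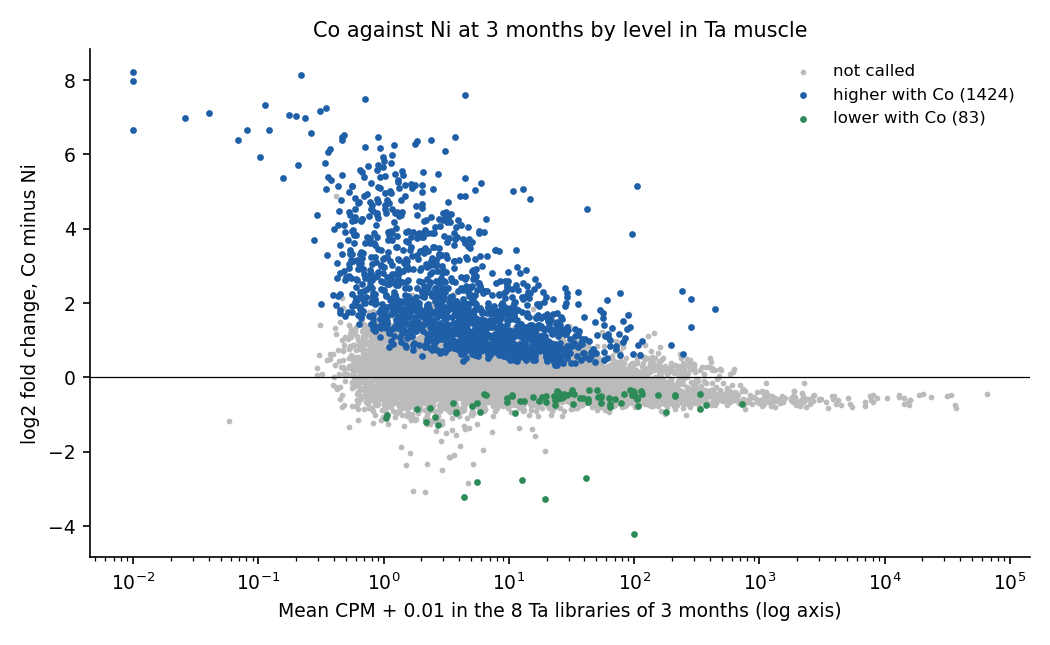
Log2 fold change of Co minus Ni (vertical axis) against the mean CPM plus 0.01 in the 8 Ta libraries of 3 months (horizontal, log axis), 1 point per gene. The 1424 genes higher with Co (blue) lie mostly under 100 CPM, the 83 lower ones (green) mostly close to 0, and the 90 genes of at least 1000 CPM all lie below 0.

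The abundant genes differed between Co libraries in the same way as the rises did. Against the Ni median, the 90 genes of at least 1000 CPM had a median difference of -1.98 in Co replicate 2, -1.65 in 8, -1.47 in 6 and -0.75 in 3, in log2 CPM. It was -0.49 in Co replicate 7, -0.12 in 5, -0.04 in 4 and 0.10 in 1. Genes under 1 CPM in Ta took the opposite course, with 0.65 to 1.14 in those first 4 libraries and 0.16 to 0.33 in the other 4. The 4 libraries with the highest values in the class under 1 CPM were thus those with the lowest in the class of 1000 CPM or more. Scarce genes that are high in Co pass the low-count filter more easily, and CPM are shares of a scaled total. The 2 courses are therefore not independent and are given as a description.

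**Figure D4:**
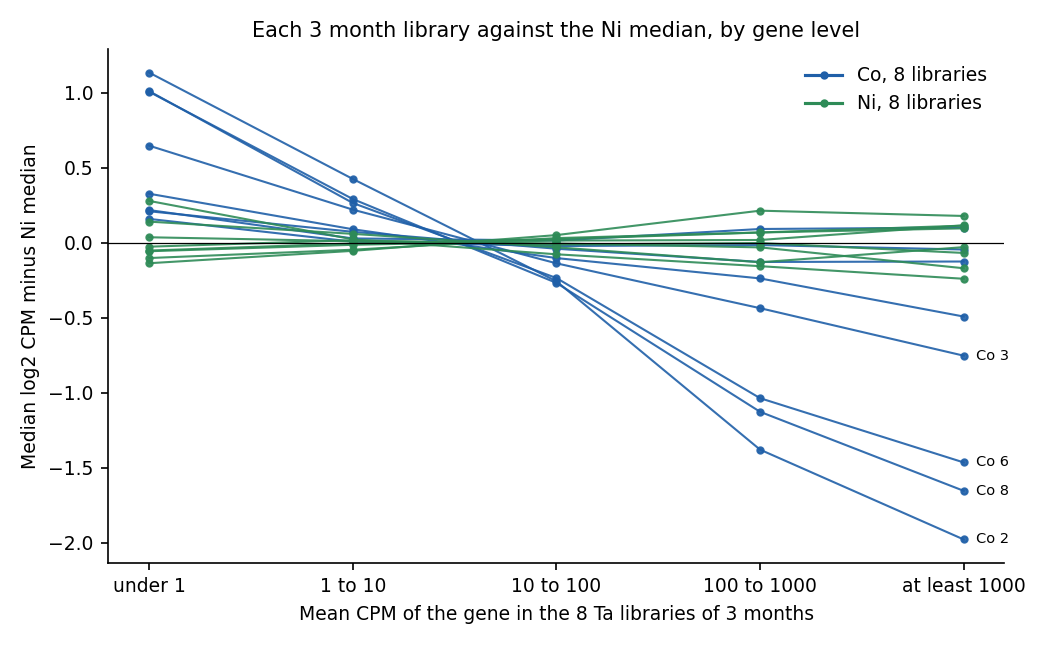
Median log2 CPM minus the Ni median (vertical axis) over genes grouped by their mean CPM in Ta (horizontal), 1 line per library, for the 8 Co (blue) and 8 Ni (green) libraries of 3 months. Co replicates 2, 8, 6 and 3 slope from 0.65 or more at the scarcest genes to -0.75 or less at the most abundant.

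Simple measures of library make-up also differed between the metals. The share of counts that went to a library's top 10 genes was 23.9% to 32.0% with Ni and 22.3% to 38.6% with Ta. With Co it was 15.5% to 31.2%, and 4 Co libraries lay below every Ni library. The means were 28.5% ± 2.36 with Ni and 23.5% ± 5.96 with Co (SD, n = 8 and 8). The exact two-sided permutation p was 0.0471, and 0.0471 after Benjamini-Hochberg adjustment over 3 such measures. Over the 8 Ta libraries the SD was 5.71, so a wide spread in this share was not particular to Co. Genes of at least 1 CPM numbered 11519 ± 201 with Ni and 12171 ± 495 with Co (SD, n = 8 and 8; exact permutation p = 0.00357, adjusted 0.0107), again with 4 Co libraries beyond every Ni library. The normalization factor averaged 0.987 ± 0.0921 with Ni and 1.36 ± 0.359 with Co (SD, n = 8 and 8; exact permutation p = 0.00886, adjusted 0.0133). These measures were chosen after seeing the data, and they move with the rises described above; their part in those results was not tested.

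Spread between libraries was wider with Co at most genes. The median SD of log2 CPM was 0.53 over the 8 Co libraries, 0.35 over the 8 Ni libraries and 0.43 over the 8 Ta libraries, for all genes tested. At the 1424 higher genes it was 1.19 with Co and 0.48 with Ni, and the Co SD was above the Ni SD at 1392 of them (97.8%), against 76.4% of all genes tested. At the 83 lower genes the median SD was 0.42 with Co and 0.23 with Ni. The Co value was above the Ni value at 66 of them (79.5%), near the share of all genes tested. Both lists were chosen from these same libraries, so their SDs describe the called genes and are not a test of spread.

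A pair of rises and a pair of falls are described by identifier. They had the largest fold changes among called genes of at least 1 CPM on average in a group, with at least 75% of each group beyond the median of the other group. ENSRNOG00000050000 was the largest rise. With Co it had 31.2, 742, 1107, 19.9, 2.42, 141, 8.25 and 1096 CPM in replicates 1 to 8. With Ni it had 0.592, 0, 0, 8.47, 0.766, 0.181, 0.573 and 0.0700 CPM. Ni replicate 4 held 151 of the 181 counts found with Ni, and 6 of 8 Co libraries lay above it. The log2 fold change was 8.21 ± 1.56 (SE, edgeR adjusted p = 0.00715), and the mean of 393 ± 501 CPM with Co was 295 times the 1.33 ± 2.90 CPM with Ni (SD, n = 8 and 8). No Ta library of 3 months had a count of this gene, which allows up to 0.0254 CPM over the group at 3 counts, counting error only. Without any 1 of the 16 libraries the log2 fold change stayed between 7.76 and 10.40 and passed in all 16 fits. The gene did not pass with limma voom (adjusted p = 0.0551) or in edgeR with the replicate number as a block (adjusted p = 0.150).

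ENSRNOG00000046699 was the next rise. In Co replicates 1 to 8 it had 3.87, 214, 95.3, 4.58, 0.277, 234, 5.87 and 406 CPM, so that 7 of 8 libraries were above every Ni library. The exception was replicate 5, which lay between the Ni median of 0.176 CPM and the highest Ni library, replicate 4, at 2.08 CPM. The log2 fold change was 8.14 ± 1.41 (SE, edgeR adjusted p = 0.00656), from means of 121 ± 150 CPM with Co and 0.421 ± 0.686 CPM with Ni (SD, n = 8 and 8). In Ta the gene ran from 0 to 0.471 CPM with a median of 0.215, within the Ni range. It passed without any 1 of the 16 libraries, at log2 fold changes of 7.53 to 9.38. This gene also did not pass with limma voom (adjusted p = 0.0603) or in edgeR with the replicate block (adjusted p = 0.150). For both rises the 4 highest Co libraries were replicates 2, 3, 6 and 8, in differing order.

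**Figure D5:**
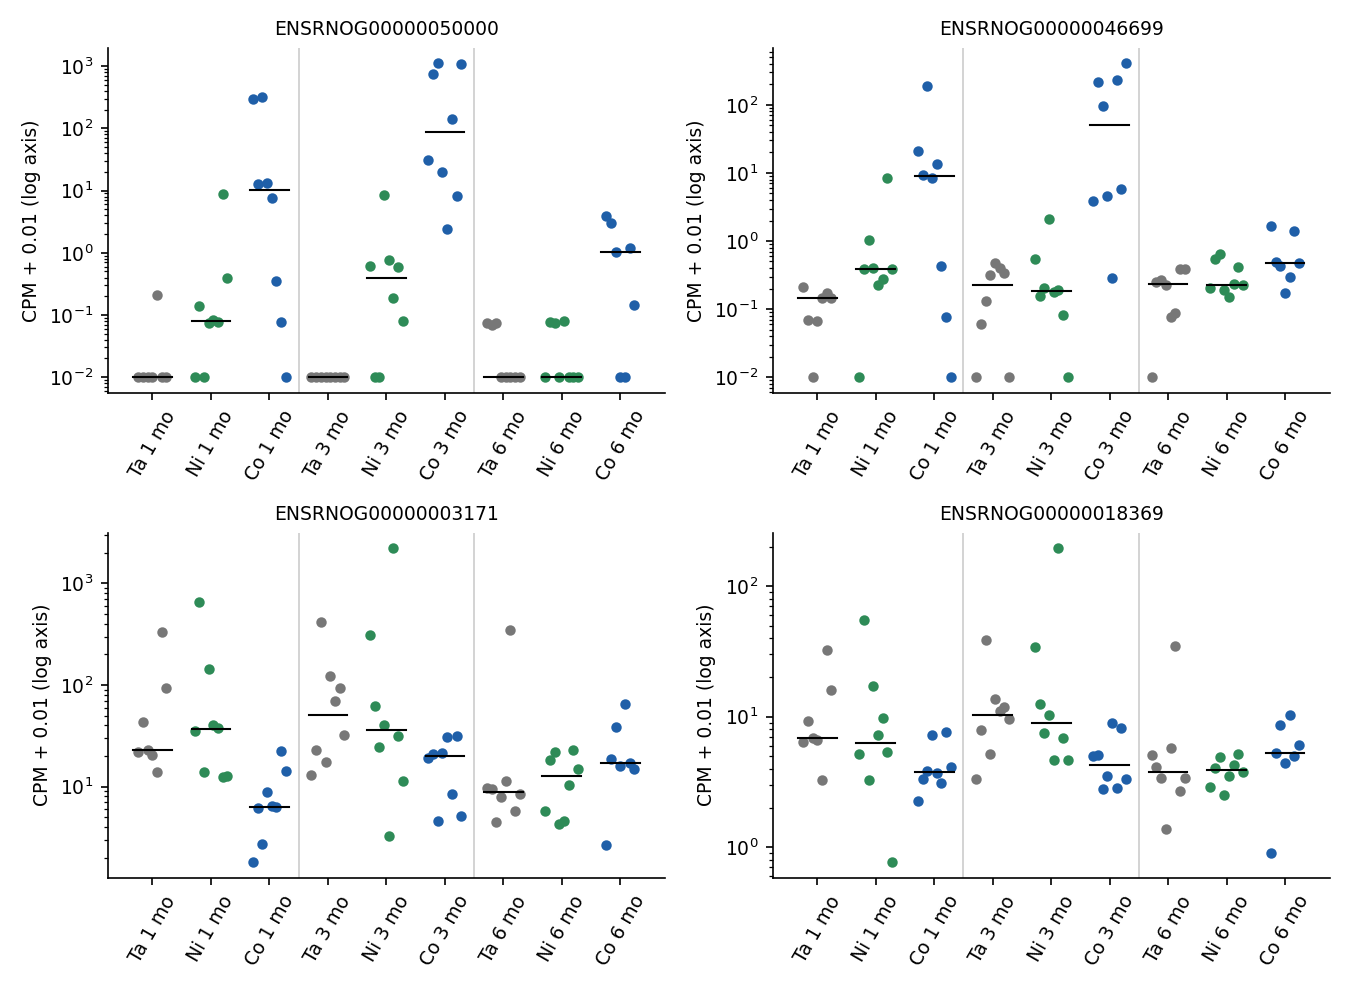
CPM plus 0.01 (vertical, log axis) of the 4 genes given by identifier, per library, for Ta (grey), Ni (green) and Co (blue) at 1, 3 and 6 months; lines are medians. The upper panels, the rises, show 4 Co libraries of 3 months at 95.3 CPM or more. In the lower panels, the falls, a single Ni library of 3 months reaches 2217 and 195 CPM.

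The 2 falls given by identifier rested on a wide Ni group, unlike the 83 falls as a set. ENSRNOG00000003171 ran from 3.24 to 2217 CPM with Ni, with a median of 36.0, and from 4.56 to 31.6 CPM with Co, with a median of 19.9. The groups overlapped, and Ni replicates 6 and 1, at 2217 and 309.9 CPM, stood above the rest of their group, whose highest value was 61.8 CPM. The log2 fold change was -4.22 ± 1.16 (SE, edgeR adjusted p = 0.0281), but -1.83 in DESeq2 (Wald test adjusted p = 0.0359). Without Ni replicate 6 edgeR gave -1.95 with an adjusted p of 0.109. The call was also lost without Co replicate 2, 3, 6 or 8 (adjusted p 0.0616, 0.0541, 0.0644 and 0.0650), but there the log2 fold change kept its size, at -4.27, -4.07, -4.12 and -4.08. In Ta the gene ran from 13.2 to 419.6 CPM with a median of 50.4, a narrower range than with Ni.

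ENSRNOG00000018369 had the same high library. It ran from 4.68 to 195 CPM with Ni (median 8.87) and from 2.78 to 8.99 CPM with Co (median 4.26), and 4 of 8 Co libraries lay below every Ni library. In edgeR it had an adjusted p of 0.0303 and a log2 fold change of -2.76 ± 0.77 (SE), which became -1.21 without Ni replicate 6, at an adjusted p of 0.0894. The call was likewise lost without Co replicate 2, 3, 6 or 8 (adjusted p 0.0663, 0.0582, 0.0690 and 0.0690), with the log2 fold change little moved at -2.77, -2.67, -2.68 and -2.70. DESeq2 with all 16 libraries gave -1.12 (Wald test adjusted p = 0.0449). The Ta libraries held 3.30 to 38.9 CPM with a median of 10.3, which spans all of the Co range but its lowest values.

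The same genes were followed at the other times when both metals were sequenced. At 1 month, in libraries that had no part in choosing them, the 1424 genes had a median Co minus Ni difference of 0.64 log2 CPM, and 86.2% lay above 0, against -0.01 and 49.5% of all genes tested. Their mean level at 1 month reached 4.59 log2 CPM in Co replicate 3 and 4.10 in replicate 1, while the other 6 Co libraries had 1.55 to 2.64. Ni libraries of 1 month ran from 1.70 to 2.83. Thus 2 Co libraries of 1 month lay near the upper 4 of 3 months, and the rest overlapped Ni. The 83 lower genes had a median difference of 0.06 at 1 month, where 66.3% were above 0, so as a group they were not lower with Co at that time.

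At 6 months the difference in the 1424 genes was small, with a median of 0.05 log2 CPM and 57.5% above 0, against -0.04 and 45.2% of all genes. Their mean level was 1.60 to 1.83 log2 CPM in the 7 Co libraries and 1.42 to 1.87 in the 8 Ni libraries. The 83 lower genes had a median difference of -0.22, with 21.7% above 0. One of the 7 Co libraries, replicate 1, lay apart at 3.34 log2 CPM over the 83 genes, where the other 6 had 4.50 to 4.77. The differences were taken between group means, which include that library. The median library level over the 83 genes was 4.63 log2 CPM with Co and 4.66 with Ni. The part of replicate 1 in the -0.22 was not tested.

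Whether the gap between the metals differed between times was tested by an interaction term. Against 6 months, the gap at 3 months was larger toward Co at 754 of 13095 genes (5.76%) and toward Ni at 126 (0.962%; edgeR adjusted p under 0.05, 31 libraries). Of the 754 genes, 609 were among the 1424 rises, which is 80.8% of the former and 42.8% of the latter. Of the 126, 13 were among the 83 falls, or 10.3% and 15.7%. Both lists used the 3 month libraries. The total of 880 moved to 361, 367, 410 and 577 without Co replicate 6, 2, 8 or 3 of 3 months, and to 557 without Ni replicate 8. It rose to 2010, 1849, 1500 and 1469 without Co replicate 4, 1, 5 or 7.

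Against 1 month no gene passed in edgeR among 13559 tested (0%), the smallest adjusted p being 0.185. There, 1780 genes had an unadjusted p under 0.05, and DESeq2 called 21. A difference in the gap between 1 and 3 months was therefore not shown, which does not show that the gaps were alike. The median interaction over the 1424 genes was 0.73 against 1 month and 1.54 against 6 months, beside 0.04 and -0.00 over all genes tested there.

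The 4 genes given by identifier followed these courses. ENSRNOG00000050000 had a median of 10.1 CPM with Co at 1 month, 86.0 at 3 months and 1.03 at 6 months, against 0.0696, 0.377 and 0 CPM with Ni. Its gap did not pass a difference between 3 months and 1 or 6 months (edgeR adjusted p = 0.631 and 0.729). The differences were 2.11 ± 1.98 and 2.92 ± 4.82 (log2, SE). At 6 months 5 of the 8 Ni libraries held no count of it, so that test cannot decide whether the gap changed. ENSRNOG00000046699 had medians of 8.98, 50.6 and 0.463 CPM with Co and 0.380, 0.176 and 0.218 CPM with Ni at 1, 3 and 6 months. The gap of this gene was larger at 3 than at 6 months by 7.08 ± 1.69 (log2, SE; adjusted p = 0.0147 in edgeR).

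For ENSRNOG00000003171 the medians at 1, 3 and 6 months were 6.35, 19.9 and 17.2 CPM with Co and 36.6, 36.0 and 12.6 CPM with Ni. Its gap at 3 months differed from that at 6 months by -5.18 ± 1.27 (SE, edgeR adjusted p = 0.0169), but without Ni replicate 6 of 3 months by -2.90 at an adjusted p of 0.0620. For ENSRNOG00000018369 the medians were 3.76, 4.26 and 5.30 CPM with Co and 6.28, 8.87 and 3.92 CPM with Ni. Its gap at 3 months differed from that at 6 months by -3.38 ± 0.86 (SE, edgeR adjusted p = 0.0202), and without Ni replicate 6 by -1.80 at an adjusted p of 0.0527. Neither fall passed against 1 month (edgeR adjusted p = 0.903 and 0.579).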

How the data were processed

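The table deposited by the authors holds raw read counts, as whole numbers. The submitters' processing notes name HISAT2 2.0.5, featureCounts 1.5.0-p3 and the build Rnor_6.0. Neither annotation release nor strand setting is given in the sources used here, and genes that overlap, lie antisense or are near copies of others are uncertain. The labels' protocols give a stranded kit for total RNA (1000 ng).

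The 8 Co and 8 Ni libraries of 3 months were compared with edgeR 4.0.16 (R 4.3.3): filterByExpr (minimum count 10), TMM factors, glmQLFit with robust=TRUE, glmQLFTest and Benjamini-Hochberg adjustment over all genes tested. The SE is the log2 fold change over the square root of F. CPM took its TMM factors from all 150 libraries. A prior count of 2 was used for log2 CPM. Interaction terms used 32 or 31 libraries. Permutation tests used scipy 1.17.1. Fits were tested on simulated data.

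None of the 32545 identifiers matched a name in the reference (GRCr8), so the 34 gene lists written for the comparison could not be tested, and the naming rule kept 2 rises and 2 falls, the largest by fold among called genes of at least 1 CPM on average in a group with 75% or more of each group beyond the median of the other. The comparison and lists were chosen with earlier results of these data known. Alternatives were other scalings, filters and tools (DESeq2 1.42.0, limma 3.58.1), other sets of libraries, the replicate number as a block and leave-one-out fits. No 2 libraries of a group matched within sampling noise (lowest chi-square per degree of freedom 20.4).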

Additional observations from a re-analysis of the deposited data

Results flagged for a closer look

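A check for a library far from the other 7 of its group was made on 33 measures of the Co, Ni and Ta groups of 3 months, and 6 of them set a library apart. For values with a normal spread, chance alone does so in about 1 in 20. All 6 are CPM of single genes, which are skewed, so that rate does not hold for them. The 6 fall on 3 libraries, each set apart for a pair of genes, and are not independent. ENSRNOG00000003171 had 2217 CPM in Ni replicate 6, with the next library at 309.9 CPM, and ENSRNOG00000018369 had 195 CPM in the same library, with the next at 34.1 CPM. In Ta replicate 3 the same 2 genes had 419.6 and 38.9 CPM, with the next libraries at 122 and 13.7 CPM. Ni replicate 4 had 8.47 CPM of ENSRNOG00000050000 and 2.08 CPM of ENSRNOG00000046699, where the next Ni library of the former had 0.766 CPM. None of the Co libraries of 3 months was set apart in this way. The check looks for 1 library alone and cannot set apart Co libraries that lie high together. The gap between the metals differed between 3 and 6 months at 880 genes by the interaction test in edgeR. Those genes include ENSRNOG00000046699 (7.08 on the log2 scale), ENSRNOG00000003171 (-5.18) and ENSRNOG00000018369 (-3.38).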

How the results depend on the processing

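Of the 1507 genes called for Co against Ni at 3 months, 1344 were among the 1348 called with DESeq2's size factors, 1504 among the 2084 called by DESeq2 and 1288 among the 2210 called without a filter on low counts. The fit of all 40 libraries of 3 months called 2057. Besides Co and Ni it held the groups labelled Ta, P and DU (depleted uranium), of 8 libraries each. Other settings moved the count by over 1.5 times: 4197 with library totals without TMM, 1 with limma voom with sample quality weights, and 3486 (2485 higher, 1001 lower) with 39 libraries of 3 months, a set without DU replicate 2 that was chosen after seeing the data. Leave-one-out fits gave 647 to 2615. The gap at 3 months minus that at 6 months gave 361 to 2010 genes in leave-one-out fits, 1573 with DESeq2 and 1186 without Co replicate 1 of 6 months, a setting chosen after seeing the data. Against 1 month leave-one-out fits gave 0 to 0 genes and DESeq2 21.

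With the replicate number as a block, edgeR called 0 genes for Co against Ni (3062 at an unadjusted p under 0.05), 0 for the gap against 6 months (2914) and 0 against 1 month (1664). Same-numbered Co and Ni libraries deviated together, with a correlation over 0.1, in 1 of 8 pairs. Of 8 Co libraries, 0 correlated best with the Ni library of their own number. These correlations alone do not settle whether same-numbered libraries share more than a number, which was not tested.

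Among the genes given by identifier, signs turned in gaps against 1 month, which passed in none of the fits. The gap of ENSRNOG00000003171 was -0.44, but 0.38 with DESeq2, 0.0667 with the replicate block and 1.84 without Ni replicate 6 (leave-one-out range -0.63 to 1.84). That of ENSRNOG00000018369 was -1.22, but 0.45 with DESeq2 and 0.35 without Ni replicate 6 (range -1.41 to 0.35). The cause of these changes was not tested. With voom or the block none of the 4 genes given by identifier passed for Co against Ni. Depth limits genes at a few counts, where a library can hold 0.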
